A study of Arabidopsis thaliana with 9 samples.

Results

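Seedlings of the *bdr1,2,3* triple mutant were compared directly with seedlings of the *fpa* mutant, gene by gene across the whole count table. The comparison used 6 of the 9 RNA-seq libraries of the series, 3 of *bdr1,2,3* (replicates 2, 4 and 7) and 3 of *fpa* (replicates 3, 6 and 8), chosen by genotype label alone, and left out the 3 wild-type libraries. Both mutants are in the Col-0 ecotype and neither received a treatment. The triple mutant combines insertion lines of *BDR1* (SALK_142108C), *BDR2* (CS852350) and *BDR3* (SALK_059905), and *fpa* carries the single allele *fpa-7*. Seedlings were sampled at 8 days on MS plates, after 4 days of cold and dark at 4 °C, at 21 °C with 16 h of light and 8 h of dark. Each genotype is represented by 1 combination of alleles. A difference between the mutants does not tell which of them departs from wild type.

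The BORDER (BDR) proteins join a SPOC domain to a domain related to TFIIS, the elongation factor that helps stalled RNA polymerase II to restart. FPA is an RNA-binding protein that also has a SPOC domain. It belongs to the autonomous flowering pathway, whose members lower the level of the floral repressor FLC, and it acts on the choice of site at which transcripts are cleaved and polyadenylated. The mutants affect different proteins that act along transcription units.

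The libraries held between 14557440 and 24810614 counts, with the shallowest being *bdr1,2,3* replicate 7. Of 33602 genes in the table, 20123 passed the filter on low counts and were tested. The first principal component of log2 CPM (the usual CPM scaling of counts to library size, with TMM, edgeR's correction for library composition) held 46.8% of the variance and separated the genotypes. The second held 19.2% and spread the *bdr1,2,3* libraries, with replicates 2, 4 and 7 at 35.7, 2.94 and -43.7. The *fpa* libraries were spread less and in the same order, with replicates 3, 6 and 8 at 13, 3.88 and -11.8. Whether this order by replicate number reflects a batch was not tested. Within a genotype the libraries were not copies of each other, since chi-square divided by its degrees of freedom ran from 9.99 to 22 over the pairs. The study describes the *bdr1,2,3* libraries as biological replicates, and neither it nor the labels say how the plants of the replicates were separated, so the tests measure the spread between these libraries.

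The disrupted genes were read first, because they check the labels. *BDR1* (AT5G25520, TAIR10.1 chromosome 5, 8885088 to 8889904) had 24, 49 and 13 counts in *bdr1,2,3* replicates 2, 4 and 7 and 867, 979 and 953 in *fpa* replicates 3, 6 and 8. The level was 1.33 ± 0.589 CPM (SD, n = 3) in *bdr1,2,3* and 50.4 ± 3.64 in *fpa* (log2 fold change -5.18 ± 0.22 standard error, adjusted p = 3.22e-08, edgeR). *BDR2* had 218, 283 and 127 counts in *bdr1,2,3* and 356, 476 and 467 in *fpa* (log2 fold change -1.20, adjusted p = 0.000449, edgeR). *BDR3* had 143, 203 and 47 counts against 269, 284 and 299 (log2 fold change -1.33, adjusted p = 0.00579, edgeR). The 3 libraries labelled *bdr1,2,3* were thus below every *fpa* library for each *BDR* gene. Counts over a gene do not show whether a transcript crosses an insertion, and each *BDR* gene overlaps another annotated gene, AT5G25530, AT5G11425 and AT2G25650, with which reads may be shared. *FPA* (AT2G43410) had 959, 1085 and 411 counts in *bdr1,2,3* and 803, 773 and 797 in *fpa*, which is 38.7 ± 8.40 and 42.8 ± 3.98 CPM (log2 fold change -0.14, adjusted p = 0.689, edgeR). Its gene count therefore does not check the *fpa* label.

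In all, 560 genes were higher in *bdr1,2,3* than in *fpa* (2.78% of those tested) and 709 were lower (3.52%), at a Benjamini-Hochberg adjusted p-value under 0.05 in edgeR's quasi-likelihood test. The falls were larger than the rises. Among the genes that were lower, 400 differed at least 2-fold and 86 at least 8-fold, and their median log2 fold change was -1.13. Among those that were higher, 187 differed at least 2-fold and 10 at least 8-fold, with a median of 0.77. The libraries of the 2 genotypes did not overlap for 553 of the higher and 704 of the lower genes, against 24.2% of all tested genes. The median log2 fold change over all tested genes was 0.00. The counts of calls moved with single libraries. They were 925 higher and 1093 lower without *bdr1,2,3* replicate 7, 278 and 410 without *bdr1,2,3* replicate 4, 329 and 466 without *fpa* replicate 3, 290 and 417 without *fpa* replicate 6, and 277 and 452 without *fpa* replicate 8.

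**Figure D1:**
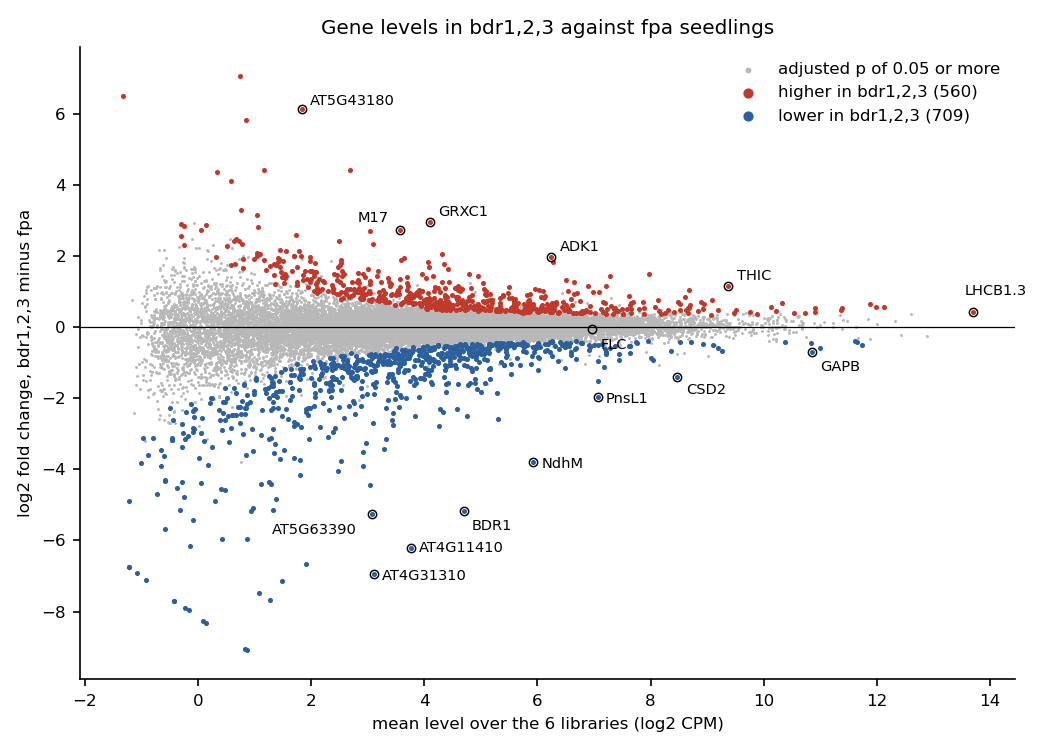
Mean level of each tested gene over the 6 libraries (x axis, log2 CPM) against its log2 fold change, *bdr1,2,3* minus *fpa* (y axis), with 1 point per gene and the 560 higher and 709 lower genes in color. The largest differences lie below 0, where *AT4G31310* and *AT4G11410* are at -6.93 and -6.21, while *FLC* lies close to 0 at -0.04.

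The genes with the largest falls in *bdr1,2,3* were close to silent there and moderately expressed in *fpa*. *AT4G31310*, which encodes an AIG2-like protein, had 0.222, 0 and 0.212 CPM in *bdr1,2,3* replicates 2, 4 and 7 and 13.3, 16.0 and 21.3 CPM in *fpa* replicates 3, 6 and 8 (log2 fold change -6.93 ± 0.44 standard error, adjusted p = 7.81e-07, edgeR). *AT4G11410*, annotated as an NAD(P)-binding Rossmann-fold protein, had 0.222, 0.696 and 0 CPM against 29.3, 23.61 and 27.0 (-6.21 ± 0.39, adjusted p = 7.33e-07, edgeR). *AT5G63390*, for an O-fucosyltransferase family protein, had 0.400, 0.450 and 0.424 CPM against 16.1, 19.3 and 13.7 (-5.24 ± 0.27, adjusted p = 1.21e-07, edgeR). Libraries that lay fully apart were a condition of the choice of these genes, so their separation is no added result. *AT5G24240*, for a phosphatidylinositol 4-kinase gamma-like protein, had 1.07, 0.532 and 0.495 CPM against 15.8, 15.3 and 15.7 (-4.44 ± 0.28, adjusted p = 7.33e-07, edgeR).

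For 3 of these genes, *bdr1,2,3* gave only 1 or 2 counts in all, so the fitted fold change depends on the prior count. *AT1G32375*, an F-box gene, had 0, 1 and 0 counts in *bdr1,2,3* and 96, 85 and 77 in *fpa*, a ratio of 283 between the scaled sums (exact 95% interval 50.3 to 11212). *AT5G42120*, for a lectin receptor kinase, had 0, 1 and 0 counts against 70, 77 and 79, a ratio of 248 (44.0 to 9826). *CNGC16*, for a cyclic nucleotide-gated ion channel, had 0, 2 and 0 counts against 99, 110 and 92, a ratio of 165 (45.3 to 1368). These intervals cover counting error only. The adjusted p-values were 9.90e-06, 1.21e-05 and 9.90e-06 (edgeR).

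The other large falls were *AT2G22460* (log2 fold change -5.15), a MIZU-KUSSEI-like gene, *AT1G55800* (-4.84), without a described function, and the noncoding loci *AT2G01422* (-6.66) and *AT2G14115* (-4.42). *AT1G32375*, *AT5G24240*, *AT2G22460*, *AT1G55800* and *AT2G14115* overlap other annotated genes, so reads may be shared between them, since whether the counting used strand is not given in the sources used here. *BDR1* completes the 12 largest.

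**Figure D2:**
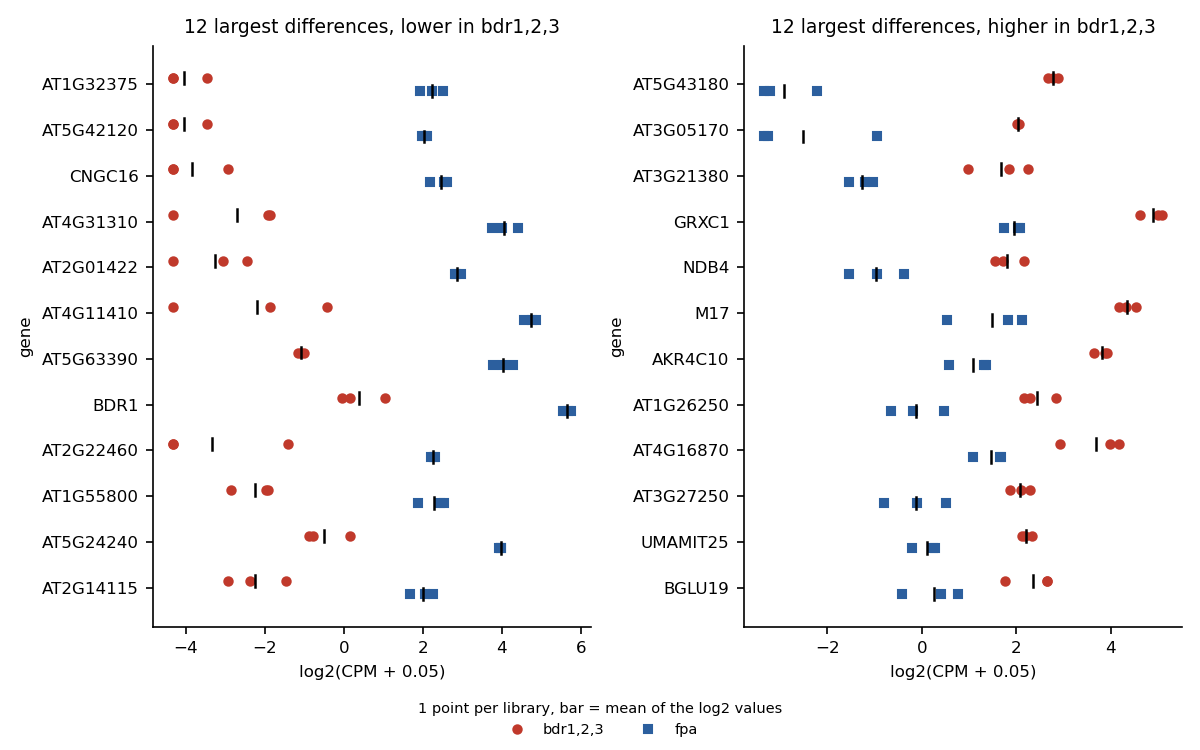
CPM per library, as log2(CPM + 0.05), for the 12 genes with the largest fold change in each direction, with 1 point per library, *bdr1,2,3* as circles, *fpa* as squares and a bar at the mean of the log2 values. No library of one genotype overlaps the other in any row, because the genes were chosen under that condition. The 3 *bdr1,2,3* libraries of *AT5G63390* lie within 0.400 to 0.450 CPM.

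Of the 12 genes with the largest falls, 7 stood in a tandem arrangement. This means a protein-coding neighbor upstream on the same strand that overlapped them or ended less than 600 bp away. The share over all 19544 tested protein-coding genes was 24.6%. The noncoding loci *AT2G01422* and *AT2G14115* were given no neighbor, so they could not be among the 7. Of the 6 neighbors that were tested, 1 was itself called. *AT4G31310* starts 2 bp downstream of the end of *PBA1*, for a proteasome subunit, which had 97.3, 89.7 and 98.2 CPM in *bdr1,2,3* and 94.8, 87.2 and 99.5 CPM in *fpa* (log2 fold change 0.02, adjusted p = 0.955, edgeR). *PBA1* thus overlapped between the genotypes, while the gene behind it was chosen among genes whose libraries lay fully apart. *AT4G11410* lies 62 bp behind *EIF3A*, for a translation initiation factor subunit (log2 fold change -0.40, adjusted p = 0.0580, edgeR), and *AT5G42120* lies 63 bp behind *Mfl1*, for a mitoferrin-like transporter (0.11, adjusted p = 0.677, edgeR). *AT1G32375* follows *TOM2B* by 193 bp (0.52, adjusted p = 0.0555, edgeR). The bases between such pairs are printed from the TAIR10.1 assembly to show how little sequence separates the transcription units, 5′ to 3′ on the strand of the genes and without the genes themselves. Bases that form TGGGCC, a site of TCP factors, or CACGTG, the G-box, on either strand would be in capitals, and neither occurs in these stretches.
*EIF3A* to *AT4G11410* (chr4:6947414-6947475, minus strand): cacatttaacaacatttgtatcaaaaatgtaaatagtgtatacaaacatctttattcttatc
*Mfl1* to *AT5G42120* (chr5:16835170-16835232, minus strand): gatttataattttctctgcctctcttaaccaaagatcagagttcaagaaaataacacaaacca
*TOM2B* to *AT1G32375* (chr1:11678693-11678885, plus strand): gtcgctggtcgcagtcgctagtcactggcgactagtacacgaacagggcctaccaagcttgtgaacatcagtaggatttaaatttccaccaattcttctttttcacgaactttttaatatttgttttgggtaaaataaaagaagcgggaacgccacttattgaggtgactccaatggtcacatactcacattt
*ADK1* to *AT5G63390* (chr5:25392685-25392919, minus strand): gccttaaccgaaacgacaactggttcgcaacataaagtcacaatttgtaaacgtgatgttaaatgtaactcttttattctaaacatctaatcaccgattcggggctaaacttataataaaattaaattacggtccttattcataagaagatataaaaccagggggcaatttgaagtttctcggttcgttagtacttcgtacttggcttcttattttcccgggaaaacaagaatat

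The last of these pairs moved in opposite directions. *ADK1*, for an adenylate kinase, which interconverts adenine nucleotides, had 105, 121 and 137 CPM in *bdr1,2,3* and 34.0, 29.3 and 28.9 CPM in *fpa* (log2 fold change 1.98 ± 0.13, adjusted p = 7.81e-07, edgeR). All *bdr1,2,3* libraries were higher for *ADK1*, and *AT5G63390*, which starts 235 bp further along the same strand, was lower in all of them. The gene upstream of *ADK1*, AT5G63410, ends 30 bp before it and had a log2 fold change of -0.12 (adjusted p = 0.694, edgeR).

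At each rank among the 12 largest, the rise was smaller than the fall. *AT5G43180*, for a putative transmembrane protein, had 6.80, 6.30 and 7.28 CPM in *bdr1,2,3* and 0.0585, 0.165 and 0.0489 CPM in *fpa* (log2 fold change 6.14 ± 0.44, adjusted p = 2.27e-06, edgeR). *AT3G05170*, for a phosphoglycerate mutase family protein, had 4.05, 4.01 and 4.098 CPM against 0.468, 0.0550 and 0.0489 (4.43 ± 0.59, adjusted p = 0.000420, edgeR). *GRXC1*, for a glutaredoxin, a small enzyme that reduces disulfides, had 33.9, 24.5 and 31.8 CPM against 3.27, 4.18 and 4.06 (2.96 ± 0.18, adjusted p = 7.33e-07, edgeR). *GRXC1* was thus clearly expressed in *fpa* too, at a lower level. Its divergent partner *AT5G63020*, a disease resistance gene that starts 55 bp away on the opposite strand and was picked with its values known, moved the same way, with 36.0, 31.6 and 27.8 CPM against 10.3, 5.61 and 6.90 (2.07 ± 0.20, adjusted p = 3.01e-05, edgeR). The stretch between both starts, on the strand of *GRXC1*, is short enough to be shared by both genes.
*AT5G63020* to *GRXC1* (chr5:25286122-25286176, plus strand): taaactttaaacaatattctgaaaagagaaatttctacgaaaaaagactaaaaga

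Among the other large rises, *M17*, for a late embryogenesis abundant protein, had 23.2, 17.9 and 19.9 CPM in *bdr1,2,3* and 1.403, 4.29 and 3.47 CPM in *fpa* (log2 fold change 2.72 ± 0.29, adjusted p = 5.39e-05, edgeR). *AKR4C10*, for an aldo-keto reductase, had 14.7, 12.4 and 15.1 CPM against 2.51, 1.43 and 2.45 (2.71 ± 0.24, adjusted p = 1.21e-05, edgeR). *NDB4*, for an alternative NAD(P)H dehydrogenase (2.82), *AT3G21380*, for a mannose-binding lectin (3.16), *BGLU19*, for a beta-glucosidase (2.13), and *UMAMIT25*, for a nodulin MtN21-type transporter (2.14), were also among them. The 12 were completed by *AT1G26250* (2.58), for an extensin-like protein, and by *AT4G16870* (2.33) and *AT3G27250* (2.18), both without a described function. *AT3G05170*, *AT1G26250* and *BGLU19* overlap opposite-strand genes, so reads may be shared there too. Of the 12 largest rises, 2 had a same-strand neighbor less than 600 bp upstream, against 24.6% of all tested protein-coding genes. *AT4G16870* was given no neighbor and could not be counted.

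The arrangement of all called genes was then described with the TAIR10.1 annotation. The nearest upstream protein-coding gene was on the same strand for 76.3% of 684 lower genes, for 46.0% of 522 higher genes and for 51.1% of all 19544 tested protein-coding genes. Where such a neighbor did not overlap, the median gap was 151 bp for lower genes, 835 bp for higher genes and 704 bp for all. A same-strand neighbor that overlapped or lay under 600 bp away was found for 57.3% of the lower, 18.0% of the higher and 24.6% of all genes. On the downstream side the shares with a same-strand neighbor were nearer to each other, at 53.2%, 43.1% and 50.7%. The search for tandem arrangements was chosen with earlier results of these libraries known, so these shares are a description and no independent evidence.

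The share of genes called lower in *bdr1,2,3* followed the distance to the same-strand neighbor. It was 16.4% of 391 genes that overlapped the neighbor, 13.5% of 1338 genes with a gap under 100 bp, 6.21% of 1676 genes from 100 bp to under 300 bp and 3.07% of 1402 genes from 300 bp to under 600 bp. Beyond that it was 2.65% of 1658 genes up to 1200 bp and 2.44% of 3526 genes farther away. These compare with 3.5% over all genes with a neighbor. With the upstream gene on the opposite strand, the share stayed between 0.656% and 2.67% at every distance. Genes called higher showed no such slope on the same strand, where their share ran from 1.85% to 3.62%, and their share was 5.08% of 610 genes whose opposite-strand neighbor lay under 100 bp away, against 2.67% over all genes with a neighbor. The pair of *GRXC1* and *AT5G63020* is of this last kind.

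**Figure D3:**
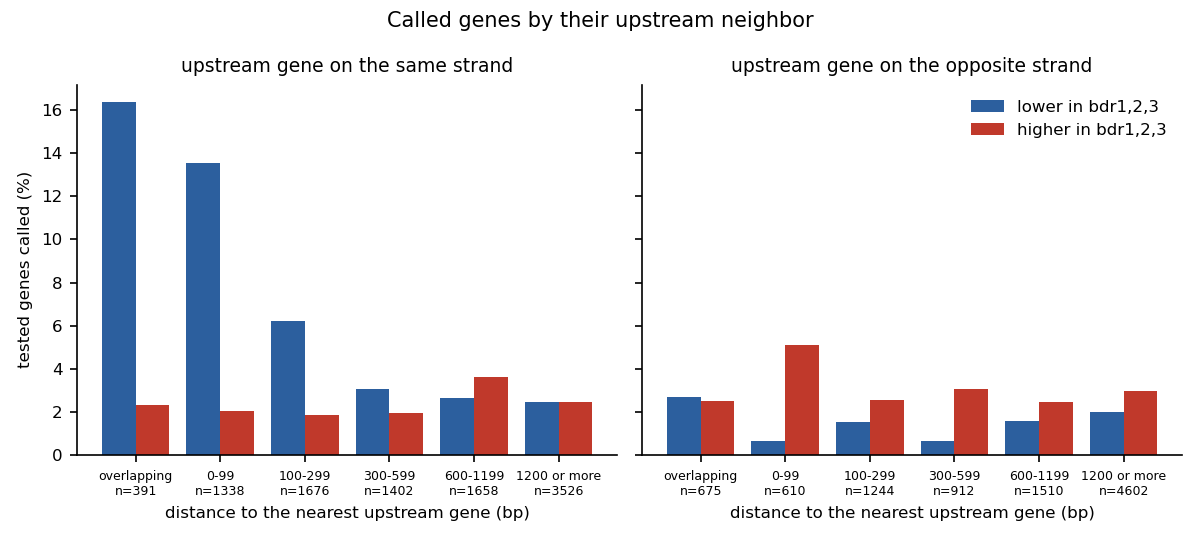
Percentage of tested protein-coding genes called lower or higher in *bdr1,2,3* than in *fpa* (y axis), by distance to the nearest upstream protein-coding gene (x axis, bp), with the neighbor on the same strand (left) or the opposite strand (right) and n genes per class. The share of lower genes is highest, 16.4% and 13.5%, where a same-strand neighbor overlaps or ends within 100 bp, and the opposite-strand panel holds no share above 5.08%.

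The level of the tandem neighbor also varied with the share. Genes with a same-strand neighbor under 600 bp away or overlapping, whose neighbor was in the table, were put in 5 equal classes of 950 by the neighbor's mean level over the 6 libraries as CPM per kilobase of exon (RPKM). In the class with the lowest neighbors, up to 0.860 RPKM, 1.89% were lower in *bdr1,2,3*, and the share was 3.47%, 8.00%, 10.9% and 16.6% in the following classes, the last of which began at 24.9 RPKM. The share of higher genes went from 2.32% to 1.05% over the same classes. Genes that overlap may share reads with the neighbor, and the part of this in the shares was not tested. Most of the neighbors themselves were not called. Of 376 tested tandem neighbors of lower genes, 18 were higher and 10 were lower, with a median log2 fold change of 0.03. Over all such pairs the counts were 106 and 137 of 4031. The share of higher neighbors was thus above that over all pairs, and this difference was not tested.

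Genes of photosynthesis were called in both directions, those of light harvesting higher in *bdr1,2,3* and those of carbon fixation lower. Light-harvesting complex (LHC) proteins bind chlorophyll and pass excitation energy to the photosystems, whose electron flow supplies the Calvin-Benson-Bassham cycle. Of 38 light-harvesting and photosystem genes, all tested, 11 were higher and none lower, with a median log2 fold change of 0.21. These 11 comprised 10 antenna genes and *PSAL*. Of 18 Calvin-Benson-Bassham cycle genes, 5 were lower and none higher, with a median of -0.27. Over all tested genes 2.78% were higher and 3.52% lower, with a median of 0.00. Fewer cells of a type and less RNA per cell cannot be told apart in whole seedlings.

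*LHCB1.4* had 4796, 4630 and 4361 CPM in *bdr1,2,3* and 2841, 2885 and 3009 CPM in *fpa* (log2 fold change 0.66 ± 0.09, adjusted p = 0.000583, edgeR). *LHCB4.1*, for a minor antenna protein of photosystem II, had 5121, 5608 and 5209 CPM against 3733, 3306 and 3705 (0.57 ± 0.09, adjusted p = 0.00229, edgeR). *LHCB3* had 574, 503 and 426 CPM against 343, 235 and 249 (0.86 ± 0.15, adjusted p = 0.00317, edgeR), the largest difference of the list. The antenna of photosystem I moved too, with *LHCA4* at 0.67 and *LHCA2* at 0.55 on the log2 scale (adjusted p = 0.00656 and 0.00676, edgeR). *LHCB1.3* had the largest difference in CPM of any gene that was higher, with 16080, 15840 and 13516 CPM against 12710, 9928 and 11249 (0.42 ± 0.11, adjusted p = 0.0344, edgeR), and *LHCB1.5* was at 0.56 (adjusted p = 0.0277, edgeR). Both calls were lost without *bdr1,2,3* replicate 2 or 4 or *fpa* replicate 6 or 8, and that of *LHCA2* without *bdr1,2,3* replicate 4. With the wild-type libraries in the fit all 3 calls were lost, as were those of *LHCB1.4* and *LHCB4.1*, while those of *LHCB3* and *LHCA4* were kept. That of *LHCB1.3* was also lost with the stricter count filter. *LHCB1* copies are near-identical, so uniquely aligned reads may be split unevenly among them.

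On the carbon-fixing side, *GAPB*, for a subunit of the chloroplast glyceraldehyde-3-phosphate dehydrogenase, had 1237, 1480 and 1476 CPM in *bdr1,2,3* and 2300, 2173 and 2383 CPM in *fpa* (log2 fold change -0.71 ± 0.10, adjusted p = 0.000833, edgeR). *PGK1*, for a phosphoglycerate kinase, had 1461, 1656 and 1790 CPM against 2393, 2275 and 2650 (-0.58 ± 0.11, adjusted p = 0.00493, edgeR). The calls of both genes were lost with the wild-type libraries in the fit. Both genes follow a same-strand neighbor closely, *GAPB* by 54 bp and *PGK1* by 13 bp. Those neighbors had log2 fold changes of -0.05 and 0.01 (adjusted p = 0.849 and 0.969, edgeR). *GAPA*, for the partner subunit of GAPB, had a log2 fold change of 0.20 (adjusted p = 0.300, edgeR). *RBCS2B* (-0.44), for a Rubisco small subunit, *RCA* (-0.41), for Rubisco activase, and *CP12-2* (-0.46), for a regulator of the cycle, were lower as well (adjusted p = 0.0175, 0.0177 and 0.0198, edgeR). These 3 calls were lost with the wild-type libraries in the fit and without *bdr1,2,3* replicate 2 or 4 or *fpa* replicate 3, that of *RBCS2B* also without *fpa* replicate 8, that of *RCA* also without *fpa* replicate 6, and that of *CP12-2* also without either. The stretch in front of *GAPB* is shown because that gene has the largest fall of the cycle.
*AT1G42960* to *GAPB* (chr1:16127299-16127352, plus strand): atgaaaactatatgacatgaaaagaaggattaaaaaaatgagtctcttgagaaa

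*CA1*, for a chloroplast carbonic anhydrase, had the largest fall in mean CPM of any called gene, with 2602, 3128 and 2651 CPM against 4098, 3798 and 4058 (log2 fold change -0.51 ± 0.10, adjusted p = 0.00750, edgeR). *CA1* overlaps its same-strand neighbor AT3G01510, and its call was lost with the wild-type libraries in the fit. *PYK10*, for a beta-glucosidase of roots, was at -0.40 (adjusted p = 0.0285, edgeR), a call lost in 6 of 11 alternative fits, among them those without any 1 library other than *bdr1,2,3* replicate 7. The 14 tested of 15 genes of chlorophyll biosynthesis gave no call in edgeR or DESeq2 and a median of -0.01, with 1 higher and 1 lower at an unadjusted p under 0.05. The count of 11 light-harvesting and photosystem genes became 4 without *bdr1,2,3* replicate 4, 7 without *bdr1,2,3* replicate 2, 6 without *fpa* replicate 6 or 8, and 2 with the wild-type libraries in the fit. The cycle's count of 5 became 2 without *bdr1,2,3* replicate 2 or 4 or *fpa* replicate 3, 3 without *fpa* replicate 6 or 8, and 0 with the wild-type libraries in the fit.

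**Figure D4:**
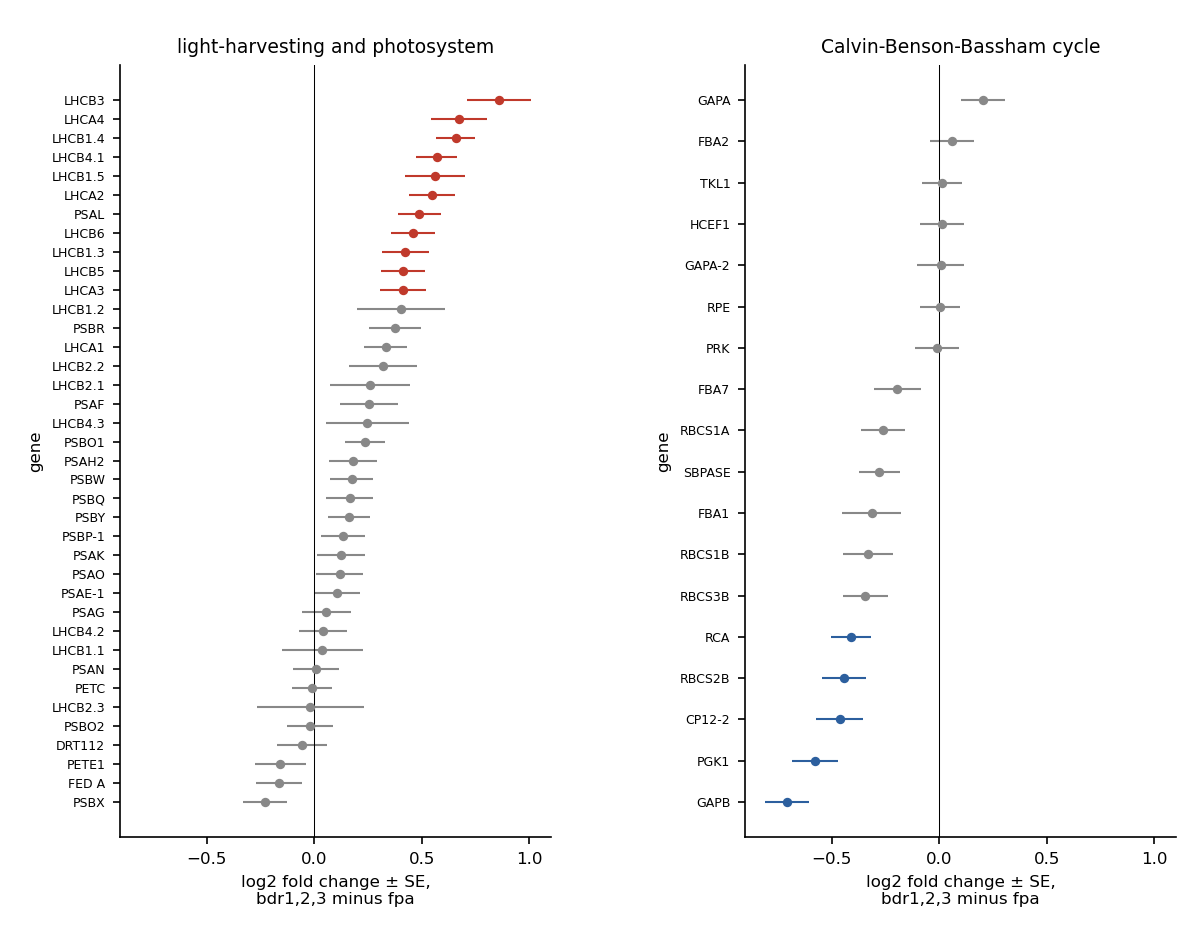
Log2 fold change, *bdr1,2,3* minus *fpa* (x axis), of each tested light-harvesting and photosystem gene (left) and each Calvin-Benson-Bassham cycle gene (right), as a point with its standard error and in color where the adjusted p-value was under 0.05. The 11 colored genes on the left lie at or above 0.41 and the 5 on the right lie at or below -0.41.

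Few flowering genes were called between the mutants. *FLC*, the repressor that the autonomous pathway holds down, had 130, 112 and 128 CPM in *bdr1,2,3* and 107, 134 and 140 CPM in *fpa*, which overlapped (123 ± 9.72 and 127 ± 17.798 CPM, SD, n = 3, log2 fold change -0.04 ± 0.12, adjusted p = 0.899, edgeR). Of 10 floral repressors tested, 2 were higher in *bdr1,2,3* (20%, against 2.78% of all tested genes). *MAF5*, a relative of *FLC*, had 3.65, 3.85 and 4.66 CPM against 0.585, 1.32 and 1.22 (1.94 ± 0.37, adjusted p = 0.00656, edgeR), and *TEM1*, for a repressor of *FT*, had 81.7, 71.1 and 92.9 CPM against 58.1, 55.0 and 46.2 (0.62 ± 0.13, adjusted p = 0.0109, edgeR). The call of *TEM1* was lost without *fpa* replicate 8 and with the wild-type libraries in the fit, which left 1 of the 2. None of 8 tested floral activators, of 14 listed, was called by edgeR or by DESeq2, 1 had an unadjusted p under 0.05, and *FT* itself, the mobile flowering signal, had 18, 21 and 15 counts against 4, 1 and 8 (1.93 ± 0.68, adjusted p = 0.118, edgeR). The *FT* libraries did not overlap, but the test was not passed at these counts.

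Factors of the same machinery as the disrupted genes gave 1 call, where 2.78% of all tested genes were higher and 3.52% lower. Neither the 7 genes of the autonomous pathway nor the 13 tested elongation factors gave a call in edgeR or DESeq2, with 0 and 1 at an unadjusted p under 0.05, and of 11 cleavage and polyadenylation genes only *CSTF77*, for a cleavage stimulation factor subunit, was higher (log2 fold change 0.57, adjusted p = 0.0476, edgeR), a call lost in 7 of 11 alternative fits.

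Regulators of light responses and of the clock held a few calls. *PIF4*, for a transcription factor that promotes growth in shade and warmth, had 50.03, 40.6 and 33.6 CPM in *bdr1,2,3* and 25.6, 25.6 and 24.6 CPM in *fpa* (log2 fold change 0.71 ± 0.15, adjusted p = 0.00989, edgeR). *HFR1*, for a factor that restrains PIF proteins, had 17.9, 18.8 and 23.4 CPM against 6.31, 10.4 and 12.4 (1.03 ± 0.22, adjusted p = 0.0112, edgeR). *LUX*, for a component of the evening complex, had 195, 171 and 173 CPM against 113, 116 and 108 (0.67 ± 0.10, adjusted p = 0.00142, edgeR). These were 2 of 15 light signalling genes (13.3%) and 1 of 12 clock genes (8.33%), against 2.78% over all tested genes. No member of either list was lower. *LUX* overlaps the opposite-strand gene AT3G46650, so reads may be shared. *PIF5* had a log2 fold change of 0.26 (adjusted p = 0.465, edgeR), and *PAO3*, the gene behind it on the same strand, had 0 counts in all 6 libraries. Whether reads of *PAO3* were lost in alignment or counting was not tested. The 0 counts are therefore not read as absence of its transcript.

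**Figure D5:**
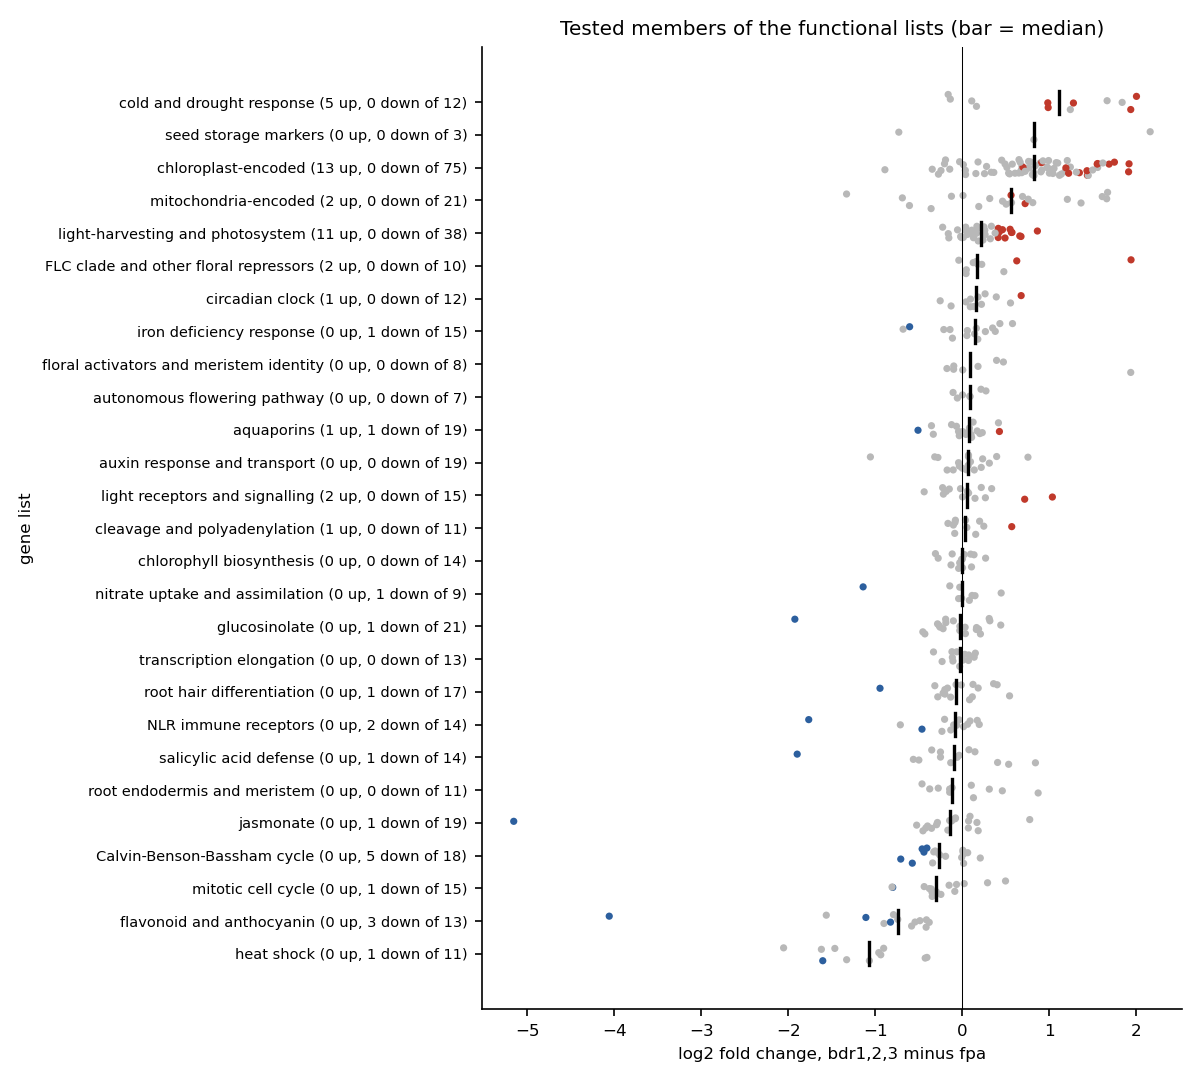
Log2 fold change, *bdr1,2,3* minus *fpa* (x axis), of every tested member of the functional gene lists (y axis, ordered by median), as 1 point per gene with called genes in color and a bar at each list's median. The medians run from 1.11 for the cold and drought response to -1.07 for heat shock, against 0.00 over all tested genes.

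Several cold and drought response genes were higher in *bdr1,2,3*. Of 12 tested members, of 13 listed, 5 were higher (41.7%) and none lower, against 2.78% and 3.52% of all tested genes. The median log2 fold change was 1.11, against 0.00 over all genes. The products of these genes protect membranes and proteins when cells lose water, and many are induced by abscisic acid. *COR6.6* had 144, 134 and 150 CPM in *bdr1,2,3* and 54.2, 52.1 and 70.1 CPM in *fpa* (1.28 ± 0.13, adjusted p = 3.68e-05, edgeR). *RAB18*, for a dehydrin, had 182, 201 and 159 CPM against 76.5, 105 and 93.5 (0.98 ± 0.13, adjusted p = 0.000481, edgeR). *COR15B* had 24.2, 20.5 and 13.9 CPM against 7.37, 4.68 and 3.47 (1.93 ± 0.26, adjusted p = 0.000534, edgeR), and its tandem neighbor *COR15A*, which ends 7 bp before it, had 6.31, 5.16 and 4.88 CPM against 1.52, 0.991 and 1.57 (2.0 ± 0.31, adjusted p = 0.00133, edgeR). *RD29B* was the fifth (0.98, adjusted p = 0.0184, edgeR), a call lost without *bdr1,2,3* replicate 2 or 4 or *fpa* replicate 3 or 8. Not all members took part, since *COR47*, *ERD10*, *RD29A* and *LTI30* had log2 fold changes between -0.16 and 0.16 and were not called. *CBF2* and *CBF3*, for factors that switch on the cold genes, were at 1.84 and 1.24 without a call (adjusted p = 0.107 and 0.352, edgeR). *RAB18* and *COR15B* overlap opposite-strand genes, so reads may be shared.

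Late embryogenesis abundant (LEA) genes, a group chosen after their values were seen, by their RefSeq product names, followed the same direction in part. Of 60 tested, of 85 in all, 15 were higher and 1 was lower, and the median was 0.26, where 2.78% of all tested genes were higher and 3.52% lower with a median of 0.00. As the list was picked for its values, nothing is read from that difference. *LEA18* had 31.2, 25.5 and 27.3 CPM in *bdr1,2,3* and 7.31, 14.1 and 13.2 CPM in *fpa* (1.28 ± 0.21, adjusted p = 0.00189, edgeR), *LEA7* had 17.83, 11.2 and 11.0 CPM against 2.69, 5.23 and 5.43 (1.58 ± 0.27, adjusted p = 0.00318, edgeR), and *LEA4-5* had 12.6, 14.2 and 17.1 CPM against 4.56, 7.76 and 5.97 (1.26 ± 0.21, adjusted p = 0.00278, edgeR). In each of these 3 genes the lowest *fpa* library was replicate 3, and no *fpa* library reached a *bdr1,2,3* library. The count of 15 became 11 without that replicate and 9 without *bdr1,2,3* replicate 4 or *fpa* replicate 8. Some LEA genes are also active in ripening seeds. The list follows product names and also holds hydroxyproline-rich glycoproteins such as *AT1G52330* and *AT5G06330*, so it is not a list of seed genes. The 5 seed storage markers summed to 3.07, 5.89 and 7.42 CPM in *bdr1,2,3* and 2.397, 6.44 and 6.604 CPM in *fpa*, with overlap. None of the 3 markers tested was called in edgeR, and 1 of these markers had an unadjusted p under 0.05. Their part in the LEA values was not tested.

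The 250 bases before the annotated start were searched for 2 motifs on both strands. CACGTG, the G-box, which is bound by several families of factors including those that answer abscisic acid and light, was found for 12.8% of 522 higher genes, 4.82% of 684 lower genes and 7.46% of all 19544 protein-coding genes. TGGGCC, a site of TCP factors, was found for 13.8%, 9.65% and 16.5%. Of the 15 LEA genes that were higher, 10 held a G-box, as did 15 of all 60 tested. The LEA list and both motifs were chosen with values known, so nothing is read from this difference. In the cold and drought list 1 of the 5 higher genes and 2 of 12 tested held it, and among light-harvesting and photosystem genes 3 of the 11 higher and 6 of 38 tested. The windows of *COR6.6*, *RD29B*, *M17* and *AT3G15670*, all higher in *bdr1,2,3*, held none. A match is a run of letters and not a shown binding site, and windows of tandem genes can reach into the neighbor. The windows of *COR15A*, the higher cold gene that held a G-box, and of 3 LEA genes that held one are given with the G-box in capitals, 5′ to 3′, ending at the base before the start of the gene in TAIR10.1.
*COR15A* (chr2:17712331-17712580, minus strand): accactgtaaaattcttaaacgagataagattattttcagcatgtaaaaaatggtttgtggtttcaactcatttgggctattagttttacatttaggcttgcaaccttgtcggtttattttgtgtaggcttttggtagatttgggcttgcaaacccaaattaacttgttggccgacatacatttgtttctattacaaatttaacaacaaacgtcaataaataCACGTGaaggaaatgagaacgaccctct
*LEA18* (chr2:14863413-14863662, minus strand): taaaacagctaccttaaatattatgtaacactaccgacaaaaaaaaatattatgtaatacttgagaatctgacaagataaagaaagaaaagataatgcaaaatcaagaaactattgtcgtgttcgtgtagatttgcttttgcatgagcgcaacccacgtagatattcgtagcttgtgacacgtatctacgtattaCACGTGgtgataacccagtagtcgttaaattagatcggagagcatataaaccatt
*LEA7* (chr1:19619474-19619723, plus strand): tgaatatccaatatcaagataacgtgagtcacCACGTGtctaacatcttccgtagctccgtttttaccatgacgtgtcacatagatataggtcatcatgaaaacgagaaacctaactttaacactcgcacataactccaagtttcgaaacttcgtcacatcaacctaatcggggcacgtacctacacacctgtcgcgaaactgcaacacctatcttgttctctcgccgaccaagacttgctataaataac
*LEA4-5* (chr5:2090431-2090680, minus strand): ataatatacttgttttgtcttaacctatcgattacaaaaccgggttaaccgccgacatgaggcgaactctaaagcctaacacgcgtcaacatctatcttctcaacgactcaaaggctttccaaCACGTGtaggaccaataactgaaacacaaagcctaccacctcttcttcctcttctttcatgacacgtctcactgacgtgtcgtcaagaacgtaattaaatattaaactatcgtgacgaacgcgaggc

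Some genes of flavonoid and anthocyanin synthesis were lower in *bdr1,2,3*. Of 13 tested members, of 16 listed, 3 were lower (23.1%) and none higher, against 3.52% and 2.78% of all tested genes. The log2 fold change was below 0 for all 13, with a median of -0.74. *UGT75C1*, for an anthocyanin glucosyltransferase, had 0.311, 0.900 and 0.636 CPM in *bdr1,2,3* and 8.42, 11.9 and 10.9 CPM in *fpa* (-4.06 ± 0.34, adjusted p = 8.87e-06, edgeR). *CHS*, for chalcone synthase, the entry enzyme of the pathway, had 79.6, 97.3 and 98.9 CPM against 211, 155 and 229 (-1.11 ± 0.14, adjusted p = 0.000368, edgeR). *FLS1*, for flavonol synthase, was at -0.83 (adjusted p = 0.0430, edgeR), a call lost in 5 of 11 alternative fits. *UGT75C1* and *CHS* overlap opposite-strand genes. The list's count of 3 became 2 without *bdr1,2,3* replicate 2 or 4 or *fpa* replicate 8, 2 without *fpa* replicate 3, and 5 without *bdr1,2,3* replicate 7.

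Heat shock genes had the lowest median of the functional lists plotted, -1.07, with all 11 tested members below 0, but only *HSP18.2*, for a small heat shock protein, was called, at 0.800, 0.818 and 0.848 CPM against 2.57, 2.92 and 2.05 (-1.61, adjusted p = 0.0299, edgeR). The summed level of the list was 152, 198 and 472 CPM in *bdr1,2,3* and 259, 725 and 638 CPM in *fpa*, so *bdr1,2,3* replicate 7 lay above *fpa* replicate 3. The call of *HSP18.2* was lost in 6 of 11 alternative fits, and without *bdr1,2,3* replicate 7 the list's count was 6. Over all tested genes 3.52% were lower.

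Calls among defense genes are to be read against 2.78% higher and 3.52% lower over all tested genes. Among 122 tested genes annotated as disease resistance proteins, a list chosen after its values were seen, 1 was higher (0.82%), *AT5G63020*, and 6 were lower (4.92%). Their median was -0.12. The 6 became 3 with the wild-type libraries in the fit or without *bdr1,2,3* replicate 4 or *fpa* replicate 8. They became 4 without *fpa* replicate 3 and 2 without *fpa* replicate 6. Without *bdr1,2,3* replicate 7 the 1 higher became 2. *RPM1*, for an intracellular immune receptor, had 2.18, 2.99 and 1.63 CPM in *bdr1,2,3* and 9.35, 7.49 and 6.75 CPM in *fpa* (log2 fold change -1.77 ± 0.28, adjusted p = 0.00150, edgeR), and it overlaps its same-strand neighbor AT3G07050. *RPP7* was the other of 14 receptor genes tested in the shorter list to be lower (-0.47, adjusted p = 0.0371, edgeR), a call lost without *bdr1,2,3* replicate 4 or any 1 *fpa* library and with the wild-type libraries in the fit. *PR5*, a marker of salicylic acid responses, was the only called gene of 14 tested (-1.90, adjusted p = 0.0198, edgeR). *PDF1.2*, a marker of jasmonate and ethylene responses, had 6, 0 and 0 counts against 152, 29 and 14, was the only called gene of 19 tested (-5.16, adjusted p = 0.0114, edgeR), and was not called by DESeq2. The calls of *PR5* and *PDF1.2* were both lost without *bdr1,2,3* replicate 4 or *fpa* replicate 3. *MAM3*, for an enzyme that lengthens the side chain of glucosinolates, was lower (-1.93, adjusted p = 0.00369, edgeR), alone among 21.

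Nutrient lists held 1 call each, where 2.78% of all tested genes were higher and 3.52% lower. *NRT3.1*, for the partner protein of high-affinity nitrate transporters, had 16.0, 13.7 and 14.5 CPM in *bdr1,2,3* and 35.5, 31.5 and 30.5 CPM in *fpa* (-1.14 ± 0.14, adjusted p = 0.000168, edgeR), and was the only call among 9 tested nitrate genes. *NAS4*, for a nicotianamine synthase, was the only call among 15 iron deficiency genes (-0.61, adjusted p = 0.0445, edgeR). Of 19 aquaporins, *PIP1;3* was higher (0.42, adjusted p = 0.0291, edgeR) and *TIP1;1* lower (-0.51, adjusted p = 0.0358, edgeR). No auxin gene was called among 19 tested in edgeR or DESeq2, with 3 at an unadjusted p under 0.05. *CDKB1;1*, for a kinase of dividing cells, was lower (-0.80, adjusted p = 0.0415, edgeR), 1 of 15 mitotic genes with a median of -0.30. The calls of *NAS4* and *CDKB1;1* were lost with the wild-type libraries in the fit or without any 1 library other than *bdr1,2,3* replicate 7, that of *PIP1;3* with the wild-type libraries or without *bdr1,2,3* replicate 4 or any *fpa* library, and that of *TIP1;1* with the wild-type libraries or without *bdr1,2,3* replicate 2 or 4 or *fpa* replicate 6 or 8.

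The summed levels of root markers overlapped between the genotypes. Of 17 root hair genes only *RHS18* was called (-0.95, adjusted p = 0.0203, edgeR), not without *bdr1,2,3* replicate 2 or 4 or *fpa* replicate 3 or 6, and the list summed to between 159 and 189 CPM in *bdr1,2,3* and between 149 and 206 CPM in *fpa*. Of 11 root endodermis and meristem genes none was called in edgeR or DESeq2 and 2 had an unadjusted p under 0.05, with sums of 124 to 129 CPM in *bdr1,2,3* and 114 to 132 CPM in *fpa*. Of 4 floral organ markers 1 was tested and not called. Transcripts of the chloroplast genome made up 0.0830%, 0.100% and 0.0398% of counts in *bdr1,2,3* replicates 2, 4 and 7 and 0.0560%, 0.0318% and 0.0384% in *fpa* replicates 3, 6 and 8. Of 75 tested chloroplast genes 13 were higher (17.3%), with a median of 0.82. Of 21 mitochondrial genes 2 were higher (9.52%), where 2.78% of all tested genes were higher. The libraries were made with an mRNA kit, so these few counts need not follow the levels of organelle transcripts. The chloroplast count became 35 without *bdr1,2,3* replicate 7, 2 without *bdr1,2,3* replicate 4 or *fpa* replicate 6, and 3 without *bdr1,2,3* replicate 2 or *fpa* replicate 8, and the share in *bdr1,2,3* replicate 7 lay within the *fpa* range.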

How the data were processed

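RNA-seq counts per gene were analysed for 3 *bdr1,2,3* and 3 *fpa* libraries. The authors made libraries from 3 µg of total RNA with the TruSeq Stranded mRNA kit. They aligned single-end reads to the *Arabidopsis thaliana* TAIR10 genome with TopHat2 2.0.8 and kept uniquely mapped reads with SAMtools 1.2. They deposited raw read counts per gene from featureCounts. Their table normalized with DESeq2 1.14.1 was not used here. Every column of the count table matched a sample.

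Counts were tested with edgeR 4.0.16 (R 4.3.3), with its default filter on low counts, TMM scaling, the quasi-likelihood test without covariates and Benjamini-Hochberg adjustment over all 20123 genes tested, at a threshold of 0.05. A log2 fold change is *bdr1,2,3* minus *fpa*, and CPM uses TMM-scaled library sizes. Total counts of 14557440 to 24810614 limit the precision of low genes. Tables and figures were made with Python 3.11.15, pandas 2.3.3 and matplotlib 3.10.9. Neighbors, gene names, gaps and windows came from the RefSeq annotation of TAIR10.1, in which 98.5% of nuclear gene identifiers were found. The gene distances are between annotated gene ends.

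Genes named in the text were *BDR1*, *BDR2*, *BDR3*, *FPA* and *FLC*, the 12 largest fold changes of each direction (called, libraries of the genotypes fully apart, and log2 CPM averaging 1 or more), the 5 of each direction with the largest difference in CPM, up to 4 called members of each list with the smallest p, *PIF5* and *PAO3*, and the upstream neighbors of described genes. *CP12-2*, *GAPA*, *PSAL*, *FT*, *RD29B*, *CBF2*, *CBF3*, *COR47*, *ERD10*, *RD29A*, *LTI30*, *ADK1*, *AT5G63020*, the LEA list, both motifs and all genes in the closing observations were chosen after their values were seen or as examples of uncalled members. The genes and lists were chosen with earlier results of these data known. Alternatives were DESeq2 1.42.0, RLE size factors, no filter, at least 10 counts in each library, the wild-type libraries added to the fit, an adjusted p under 0.01, each library left out, and the nearest gene of any type as the neighbor.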

Additional observations from a re-analysis of the deposited data

How the results depend on the processing

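No paired analysis was run. The *bdr1,2,3* libraries (replicates 2, 4 and 7) and the *fpa* libraries (replicates 3, 6 and 8) share no replicate number. No pairing is stated in the sources used here. The libraries of both genotypes lay in order of replicate number along the second principal component. Whether they were made in blocks was not tested. The counts of higher and lower genes were 740 and 913 with DESeq2, which kept 554 and 704 of the genes called by edgeR, and 735 and 892 without a filter. They were 282 and 440 with the wild-type libraries in the fit, which made the 3 genotypes share a spread, and 199 and 341 at an adjusted p under 0.01. Leaving out a library gave 277 to 925 higher and 410 to 1093 lower genes, and without *bdr1,2,3* replicate 7, the shallowest library, 508 and 674 of the calls were kept. The cause of these shifts was not tested. The share of lower genes with a same-strand upstream neighbor was 81.8% with the wild-type libraries, 82.2% at an adjusted p under 0.01 and 72.7% to 81.4% over the libraries left out, and 73.5% with the nearest gene of any type, where the share over all genes was 50.3%. The share for higher genes stayed between 44.9% and 49.04% in every alternative run. Of 70 called genes under the naming rule, 42 stayed called in every fit, 28 lost the call in at least 1, and 22 lost it with the wild-type libraries in the fit. Of the comparisons counted for named genes over the fits, 966 kept the main result and 157 were weaker. Uncalled named genes did not always keep their direction. Over the alternative fits the log2 fold change ran from -0.25 to 0.02 for *FPA* and from -0.15 to 0.04 for *FLC*. With at least 10 counts in each library, every list median kept its sign except that of the seed storage markers. Both sets of 12 largest fold changes stayed called in every fit that tested them, and no named gene changed sign while called.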

Other observations

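Genes and groups in these paragraphs were chosen after their values were seen, and their values are a description. Subunits of the chloroplast NADH dehydrogenase-like (NDH) complex, which returns electrons to the plastoquinone pool in cyclic electron flow, moved in both directions. Of 17 tested nuclear genes for the complex, 3 were higher in *bdr1,2,3* and 2 were lower, against 2.78% and 3.52% of all tested genes. *NdhM* had 6.14, 9.98 and 8.41 CPM in *bdr1,2,3* and 113, 125 and 102 CPM in *fpa* (log2 fold change -3.79 ± 0.17, adjusted p = 3.22e-08, edgeR), so the libraries were far apart. It begins 111 bp behind *SHM1*, for a mitochondrial serine hydroxymethyltransferase of photorespiration, whose log2 fold change was -0.05. *PnsL1* had 45.4, 58.3 and 59.8 CPM against 220, 199 and 221 (-1.97 ± 0.13, adjusted p = 7.81e-07, edgeR) and begins 56 bp behind *RPL23AA*, for a ribosomal protein (-0.13). *NdhN* went the other way, with 84.5, 88.8 and 91.3 CPM against 44.95, 38.5 and 43.7 (1.06 ± 0.11, adjusted p = 5.58e-05, edgeR), and overlaps 2 opposite-strand genes. *NdhO* and *PnsL3* were higher by 0.52 and 0.44 on the log2 scale (adjusted p = 0.0142 and 0.0349, edgeR). The call of *NdhO* was lost without *bdr1,2,3* replicate 2 or *fpa* replicate 3 or 8, and that of *PnsL3* with the wild-type libraries in the fit and without *bdr1,2,3* replicate 4 or any 1 *fpa* library, so that 1 of the 3 higher genes was left without *fpa* replicate 3 or 8. *NdhM*, *PnsL1* and *NdhN* kept their calls in all 11 alternative fits. The gaps in front of both lower subunits, on the strand of the genes in TAIR10.1, are shown because they are short.
*SHM1* to *NdhM* (chr4:17831620-17831730, minus strand): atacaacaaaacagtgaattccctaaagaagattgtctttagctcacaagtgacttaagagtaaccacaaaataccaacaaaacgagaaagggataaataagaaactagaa
*RPL23AA* to *PnsL1* (chr2:16476142-16476197, plus strand): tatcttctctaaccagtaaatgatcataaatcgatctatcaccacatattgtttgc

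Copper/zinc superoxide dismutases, which convert superoxide to hydrogen peroxide, and the chaperone that loads their copper were lower in *bdr1,2,3*. *CSD2*, for the chloroplast enzyme, had 177, 206 and 198 CPM in *bdr1,2,3* and 530, 496 and 523 CPM in *fpa* (log2 fold change -1.42 ± 0.10, adjusted p = 2.55e-06, edgeR). *CCS*, for the chaperone, had 56.9, 58.3 and 51.1 CPM against 121, 134 and 114 (-1.15 ± 0.11, adjusted p = 3.07e-05, edgeR), and *CSD1*, for the cytosolic enzyme, had 110, 110 and 142 CPM against 232, 189 and 265 (-0.92 ± 0.14, adjusted p = 0.00128, edgeR). *CSD3*, the fourth gene, was at -0.01. The 3 calls were kept in all alternatives, and no library of one genotype reached the other in these 3 genes. Over all tested genes 3.52% were lower, and the libraries did not overlap for 24.2%. As the group was picked for its values, its separation is no added result.

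Tandem pairs in which the upstream gene was higher and the downstream gene lower, as with *ADK1* and *AT5G63390*, numbered 18 of the 106 pairs under 600 bp apart, or overlapping, with a higher upstream gene (17.0%). The downstream gene was lower in 348 of 3788 pairs with an uncalled upstream gene (9.19%) and in 10 of 137 with a lower one (7.30%), and 2 pairs had a lower upstream and a higher downstream gene. These shares were not tested. One of the 18 pairs joined *THIC*, for an enzyme of thiamine synthesis, at 954, 943 and 851 CPM in *bdr1,2,3* and 464, 387 and 384 CPM in *fpa* (log2 fold change 1.15 ± 0.11, adjusted p = 2.26e-05, edgeR), to *JOSL*, for a josephin-like protein, which begins 150 bp further on and was at -1.80 (adjusted p = 0.0258, edgeR). *THIC* overlaps the opposite-strand gene AT2G29628.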
